A study of Mus musculus with 6 samples.

Results

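Leukocytes and macrophages in dermis can be followed in bulk RNA through marker genes, though which other skin cells also express these was not measured here. In ventral dermis with and without activated beta-catenin, 46 such identity genes are described. They are the rows whose gene symbol stood on a written list: 14 pan-leukocyte genes, 4 genes of the phagocyte NADPH oxidase and 28 genes of macrophages and monocytes, out of 23412 genes in the table. The list was drawn up with the mutant against control difference of these same libraries in view, so that difference is given for the members as a description. How many members passed the test over all genes is stated once, beside the share of all genes that did, and supports nothing.

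The dermis came from 3 mutant mice with the genotype HoxB6CreERT/+; R26-YFP/+; CatnbΔex3/+ and 3 littermate controls with HoxB6CreERT/+; R26-YFP/+, all on mixed CD1 and C57BL/6 background. Every mouse therefore carried the tamoxifen-dependent Cre and the yellow fluorescent reporter, and only the mutants carried the beta-catenin allele that Cre converts to its stabilised form by removing exon 3. Tamoxifen reached all of them at embryonic day 16.5 through gavage of the mother, and the ventral skin was dissected when they were 3 weeks old. The epidermis was lifted off after trypsin and total RNA of the remaining dermis was sequenced, so all cells left in the dermis contribute to each value. The Cre is driven from Hoxb6 and the study's title names dermal fibroblasts, but which cells carried the deletion was not measured in these data. The labels list 6 mice, 1 library each.

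Leukocytes arise from blood-forming stem cells and share surface proteins such as the phosphatase CD45, encoded by Ptprc, and a set of actin regulators that drive their migration. Macrophages depend on the receptor encoded by Csf1r, which binds the growth factors CSF1 and IL34, and on the transcription factor PU.1, whose gene is listed here under its older symbol Sfpi1. In skin, resident dermal macrophages carry scavenger receptors such as Mrc1 and Cd163, monocytes that enter from blood carry Ccr2, and both clear debris and release factors that act on fibroblasts.

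Reads assigned to genes ranged from 7799565 in control 2 to 13478910 in mutant 1, and the median member rested on 67 to 99.5 reads in the controls and on 199.5 to 289 in the mutants. Fibroblast genes, the markers of dermis, were abundant: Col1a1 lay between 852 and 4494 FPKM and Dcn between 177 and 796. Krt5 and Krt14, keratins of basal keratinocytes that were looked at after values were seen, lay between 168 and 267 FPKM. Library sex was not balanced: Xist, which coats the inactive X, stood at 66.2 FPKM in control 2 and 55.5 in control 1, at 6.47 in mutant 2 and at no more than 0.184 in the rest. The Y-linked gene Ddx3y was at 13.2 FPKM or more in control 3 and in each mutant, mutant 2 included, and at or under 0.0136 in controls 1 and 2. Control 2 had the lowest median-of-ratios scaling factor (0.885) and mutant 1 the highest (1.18).

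The leukocyte and macrophage genes were higher in the mutant dermis as a body. In 41 of the 46 members every mutant library lay above every control library, as it did in 13% of all tested genes. The mutant mean exceeded the control mean by 1.37-fold for Lgmn and Cd83 to 4.63-fold for Clec4n, with a median of 2.31-fold and 34 members at 2-fold or more. Their share of gene reads was 0.106%, 0.0860% and 0.120% in the controls, by library number, against 0.241%, 0.186% and 0.176% in the mutants. In bulk tissue, more cells of a type and more RNA per cell cannot be told apart. On the log2(FPKM + 1) scale, which understates changes of low genes, the median difference over the 43 members with a mean of at least 1 FPKM was 0.91 (range 0.33 to 1.45), against 0.09 over the 12560 genes that passed the same filter. The other 3 members, Ikzf1, Cx3cr1 and Msr1, stayed under it. The 46 genes lie on 20 chromosomes (GENCODE M21, GRCm38), and few are neighbours. Ptprc spans chromosome 1 from 138062861 to 138175708, and the lysozyme genes lie side by side on chromosome 10, Lyz2 from 117277331 to 117282321 and Lyz1 from 117287797 to 117292868. On chromosome 15 Ncf4, Csf2rb and Rac2 lie between 78244801 and 78572783.

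**Figure D1:**
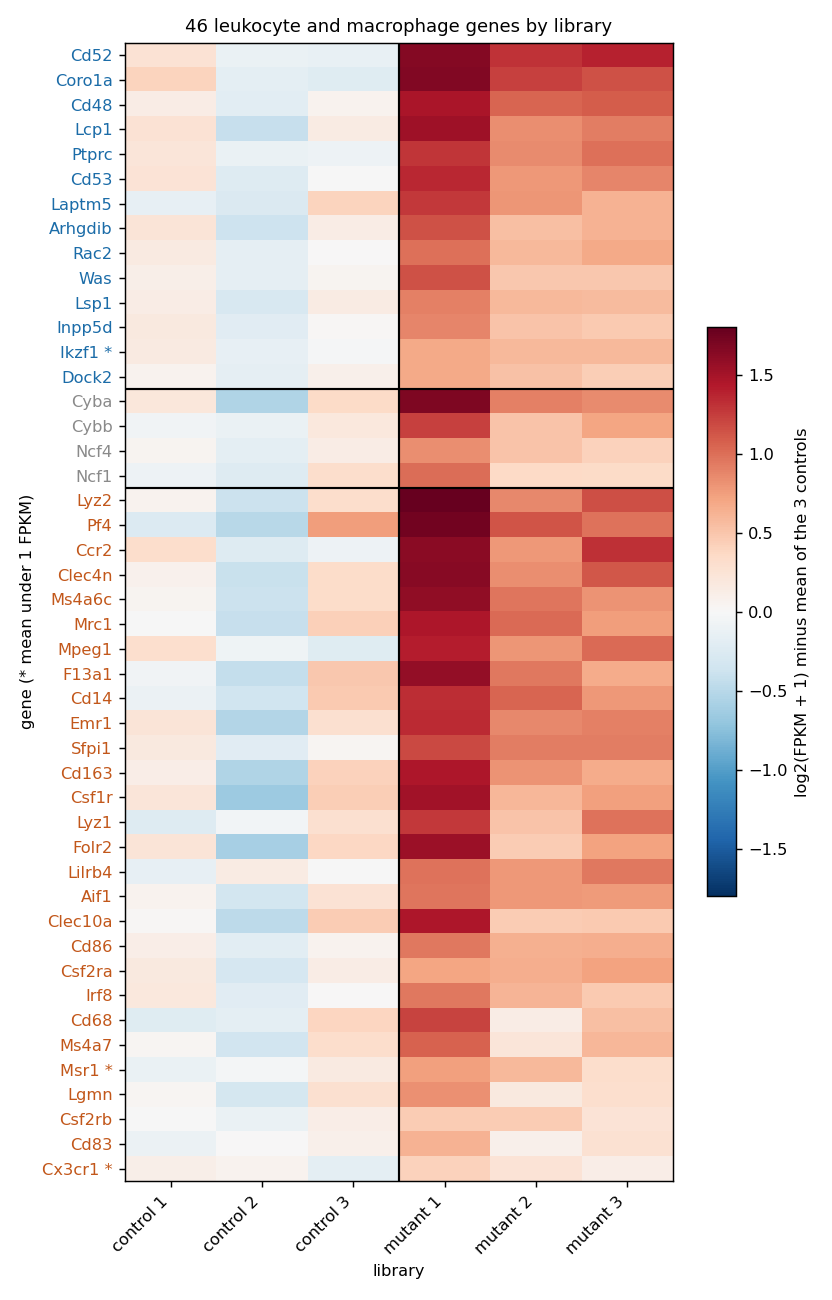
Each row is 1 of the 46 members, grouped by class, each column 1 library, and the colour gives log2(FPKM + 1) minus the mean of the 3 controls. The mutant columns are above the control mean throughout, mutant 1 most, and control 2 is the lowest control in 37 of the rows.

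Of the 43 tested members all had a difference above 0, as did 8959 of the 12560 tested genes. Past a limma adjusted p of 0.05 over all tested genes were 6 members, Ptprc, Cd52, Cd48, Coro1a, Sfpi1 and Lilrb4, where 0.143% of all tested genes were called higher (18 genes). Since the list was chosen on this contrast, nothing is read from that count. It changed with single libraries, as did the calls over all genes: 21 members of 193 called genes without control 3, 3 of 11 without control 2, 1 of 10 without mutant 1 and 0 of 3 without mutant 2. Limma-voom on the recovered reads called 23 members, where 1.44% of genes were called higher. Every mutant lay above every control in 38 of the 43, as in 13% of all tested genes. The reverse, every mutant below every control, held for 0 of the 43 and for 2.65% of all tested genes. No gene was called lower (0%) by limma, with 94 genes lower at an unadjusted p under 0.05 and 10.5% of genes higher at that level; limma-voom called 4 lower. Of the genes past the unadjusted level, 93.4% were higher in the deposited values, 60.9% after median-of-ratios scaling, 54.6% after quantile normalization and 56.4% with limma-voom. Quantile normalization moved the median of all genes from 0.09 to -0.03 and left the pan-leukocyte and macrophage medians at 0.77 and 0.83.

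The library with the most leukocyte RNA was the same for nearly every gene. Mutant 1 held the highest value for 44 of the 46 members and control 2 the lowest for 37, the same libraries that stood at the ends of the scaling factors. Mutant 3 exceeded the highest control in all 46 and mutant 2 in 41, so the 5 members with overlapping groups (Clec10a, Cd68, Lgmn, Ms4a7 and Cd83) overlapped through mutant 2 alone. The same counts by library were not computed over all tested genes. The median of all tested genes, relative to the control mean, was also highest in mutant 1 (0.25) and lowest in control 2 (-0.11). Without control 2 and mutant 1, an alternative chosen after seeing the data, the median difference was 0.58 for the pan-leukocyte genes and 0.60 for the macrophage and monocyte genes.

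Among the pan-leukocyte surface genes, Ptprc stood at 3.16, 2.29 and 2.39 FPKM in the controls against 7.73, 5.5 and 6.15 in the mutants, each in the order of libraries 1 to 3 as in all that follows, a log2 difference of 1.04 (SE 0.15). The lowest mutant, mutant 2, was thus well above the highest control, control 1. Cd52, which encodes a small glycosylphosphatidylinositol-anchored glycoprotein of leukocytes, had the largest difference of all members, 1.45 (SE 0.15), from 2.92, 2.01 and 2 FPKM to 9.35, 7.08 and 7.57. Its control values came from 15 to 25 reads per library, so counting error alone is considerable there. Cd48, a ligand of the signalling lymphocyte activation family, went from 1.29, 0.828 and 1.17 FPKM in the controls to 4.79, 3.32 and 3.46 in the mutants (1.21, SE 0.15). The lysosomal membrane protein gene Laptm5 was the surface and membrane gene with the smallest difference (0.90, SE 0.21). It was at 3.28, 2.97 and 5.3 FPKM in the controls against 10.5, 7.23 and 6.33 in the mutants. Control 3 was its highest control, a place that control 1 held for Ptprc, Cd52, Cd48 and the tetraspanin gene Cd53, which had a difference of 1.0.

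The genes of the leukocyte cytoskeleton differed by amounts from 0.55 to 1.35. In all 7 every mutant lay above every control, as in 13% of all tested genes. Coro1a, an actin regulator, was at 3.2, 1.82 and 1.76 FPKM in the controls against 9.15, 6.51 and 6.06 in the mutants (1.35, SE 0.20). Arhgdib, an inhibitor of nucleotide exchange on small GTPases, was the most abundant of them, at 11.2, 6.99 and 10.4 FPKM against 22, 14.1 and 14.9 (0.77, SE 0.21). Control 2 was low for both, and for Arhgdib the gap between control 1 and mutant 2 was small. Dock2, an exchange factor for Rac in migrating leukocytes, had the smallest difference (0.55, SE 0.13), from 1.27, 0.923 and 1.31 to 2.46, 2.11 and 1.95 FPKM. The actin bundler Lcp1 differed by 1.09, the actin-binding Lsp1 by 0.69, the GTPase gene Rac2 by 0.75 and Was, which encodes the Wiskott-Aldrich syndrome protein, by 0.70. Rac2 and Was, like Ncf4 and Clec4n below, were under 1 FPKM in every control and passed the filter through their mutant values. Irf8, with a control mean of 0.823 FPKM, also passed only through its mutant values. All of these are among the 43 tested members, so counts and medians over tested members are partly set by the filter.

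Of the pair of leukocyte signalling and transcription genes, Inpp5d, the lipid phosphatase SHIP1 that restrains growth factor signalling in myeloid cells, was at 1.99, 1.3 and 1.69 FPKM in the controls against 3.85, 2.78 and 2.68 in the mutants (0.62, SE 0.15). Ikzf1, a zinc finger factor of lymphoid and other blood lineages, stayed low at 0.694, 0.354 and 0.492 against 1.42, 1.26 and 1.27, with no overlap. The bases just before the start of Inpp5d are shown because they hold the letters that PU.1 prefers, GAGGAAGT, in capitals, 20 bases before the start site (RefSeq, GRCm38.p6, chr1:87620062-87620311, plus strand, 5′ to 3′).
Inpp5d: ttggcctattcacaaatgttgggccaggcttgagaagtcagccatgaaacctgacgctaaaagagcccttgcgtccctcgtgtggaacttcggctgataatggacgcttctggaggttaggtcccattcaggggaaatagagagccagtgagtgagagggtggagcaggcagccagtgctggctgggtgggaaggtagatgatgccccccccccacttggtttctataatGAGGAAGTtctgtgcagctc

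The phagocyte oxidase makes superoxide at the membrane of macrophages and neutrophils from a membrane pair, encoded by Cybb and Cyba, and cytosolic subunits that include those of Ncf1 and Ncf4. In all 4 every mutant lay above every control, as in 13% of all tested genes. The median difference was 0.70 against 0.90 for the 13 tested pan-leukocyte genes. As a ratio of group means the median was 2.22-fold, against 2.51-fold for all 14 pan-leukocyte genes. Cyba was the most abundant and had the largest difference (1.15, SE 0.27), with 5.8, 3.07 and 6.52 FPKM in the controls against 18, 10.1 and 9.66 in the mutants. Its partner Cybb was at 1.8, 1.7 and 2.34 against 5.89, 3.18 and 3.79 FPKM (0.82, SE 0.19). The ratio of Cyba to Cybb overlapped between groups, at 3.22, 1.81 and 2.79 in the controls against 3.06, 3.18 and 2.55 in the mutants. Ncf1 had the smallest difference (0.57, SE 0.21), since control 3 at 3.02 FPKM lay just under mutants 2 and 3 at 3.13 and 3.11. The other controls were at 2.03 and 1.76 and mutant 1 at 5.48. Ncf4 was low throughout, with 12 to 19 reads per control library and a difference of 0.59.

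Macrophage lineage transcription factors were scarce and separate between groups. Sfpi1, the gene of PU.1, was at 1.41, 0.851 and 1.2 FPKM in the controls against 3.87, 3.06 and 3.07 in the mutants (1.01, SE 0.14), from 18 to 32 and 87 to 101 reads. Irf8, which acts with PU.1 in monocytes and dendritic cells, was at 1.06, 0.58 and 0.828 against 2.49, 1.77 and 1.51 FPKM (0.68, SE 0.16). Within each group Irf8 was thus under Sfpi1 in every library. The sequence before 1 start of Irf8 is shown as the member promoter richest in CpG among those of the macrophage genes, with CG in capitals (RefSeq, GRCm38.p6, chr8:120736108-120736357, plus strand, 5′ to 3′).
Irf8: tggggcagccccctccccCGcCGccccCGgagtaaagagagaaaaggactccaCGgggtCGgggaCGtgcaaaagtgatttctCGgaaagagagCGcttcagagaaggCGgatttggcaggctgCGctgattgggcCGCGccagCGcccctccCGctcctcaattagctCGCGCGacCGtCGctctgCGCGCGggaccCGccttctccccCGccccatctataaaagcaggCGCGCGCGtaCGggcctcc

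The growth factor and chemokine receptors were spread widely. Csf1r, the receptor that keeps macrophages alive, was at 10.3, 5.17 and 12.3 FPKM in the controls against 26.9, 13.8 and 15.2 in the mutants, a difference of 0.95 (SE 0.31). Mutant 2 lay just above control 3, and control 2 was far below the other controls. Csf2rb, the shared beta chain of the GM-CSF receptor, had the smallest difference of the tested receptors (0.39, SE 0.13), at 1.73, 1.52 and 1.98 FPKM against 2.75, 2.77 and 2.26. Its partner Csf2ra differed by 0.70. Ccr2, the receptor by which monocytes leave the bone marrow and enter tissue, stood at 3.47, 2.07 and 2.39 FPKM in the controls against 10.1, 5.2 and 7.98 in the mutants (1.24, SE 0.22). Mutant 1 was highest and mutant 2 lowest of the mutants, with all of them above control 1. Cx3cr1, the fractalkine receptor of patrolling monocytes and of some tissue macrophages, was the least abundant member, at 0.25, 0.218 and 0.0357 FPKM from 16, 13 and 2 reads in the controls against 0.558, 0.387 and 0.263 from 41, 31 and 21 in the mutants.

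Scavenger and pattern receptors of resident macrophages included some of the most abundant members. Mrc1, the mannose receptor CD206, was at 13.9, 10.2 and 19.1 FPKM in the controls against 40.1, 29.3 and 24.2 in the mutants (1.08, SE 0.25). Cd163, the receptor for haptoglobin-haemoglobin complexes, was at 11.9, 7.14 and 14.8 against 31.5, 19.7 and 17.7 FPKM (0.98, SE 0.27). In both genes control 3 was the highest control and control 2 the lowest, and mutant 3 was the lowest mutant. Clec4n, the C-type lectin Dectin-2, had the largest fold of all members on few reads, 13, 3 and 17 in the controls against 91, 46 and 61 in the mutants. Its FPKM values were 0.613, 0.152 and 0.914 against 3.73, 1.73 and 2.3 (1.2, SE 0.24), and the 3 reads of control 2 make the fold imprecise. The galactose lectin gene Clec10a had the smallest difference of the tested genes of this group (0.79, SE 0.30), with 9.2, 6.22 and 12.7 FPKM against 26.4, 12.7 and 13, where mutant 2 fell within the control range. The endotoxin co-receptor gene Cd14 differed by 1.05 and the folate receptor gene Folr2 by 0.91. The scavenger receptor gene Msr1 was under the filter, at 0.382, 0.457 and 0.669 against 1.51, 1.24 and 0.87 FPKM.

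Genes of lysosomes and antimicrobial effectors held the most abundant member, Lyz2, the lysozyme of macrophages and neutrophils. It was at 67.5, 49.3 and 80.8 FPKM in the controls against 237, 118 and 146 in the mutants (1.3, SE 0.29), and mutant 1 stood far above the other 2 mutants. Its neighbour Lyz1, best known from Paneth cells of the gut, was at 6.69, 7.68 and 9.94 against 20.8, 11.8 and 16.8 FPKM (0.92, SE 0.21). The transcripts share 16.1% of the 50-base stretches of Lyz1 and 15.4% of those of Lyz2, so how the authors' counting divided reads between them is uncertain. The ratio of Lyz2 to Lyz1 was 10.1, 6.42 and 8.12 in the controls against 11.4, 10 and 8.72 in the mutants, which overlap. Lgmn, an asparaginyl endopeptidase of lysosomes, had the smallest difference of the group (0.43, SE 0.22), and its groups overlapped, at 22.6, 17.6 and 27.1 FPKM in the controls against 39.8, 25.1 and 27.6 in the mutants. Cd68, a lysosomal membrane glycoprotein widely used to stain macrophages, also overlapped, at 4.2, 4.32 and 6.9 against 13, 5.62 and 7.79 FPKM (0.63, SE 0.26), since mutant 2 was under control 3.

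The upstream sequences of the lysozyme genes, bases 250 to 51 before each start, show how alike the duplicated genes are. Both lie on the minus strand of chromosome 10 (RefSeq, GRCm38.p6, chr10:117292919-117293118 for Lyz1 and chr10:117282323-117282522 for Lyz2), and 150 of 202 columns of their alignment were identical (74.3%). Capitals mark the 4 shared runs of at least 10 bases, the longest of 14, and all 4 lie toward the start. The bases between position 51 and each start are neither shown nor counted. They are identical in both genes, so the share and the run lengths given here understate the likeness.
Lyz1: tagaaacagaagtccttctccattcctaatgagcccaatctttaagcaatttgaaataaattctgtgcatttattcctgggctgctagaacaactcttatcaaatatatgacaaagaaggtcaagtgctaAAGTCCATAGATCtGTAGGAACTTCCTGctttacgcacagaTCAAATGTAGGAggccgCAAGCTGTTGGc
Lyz2: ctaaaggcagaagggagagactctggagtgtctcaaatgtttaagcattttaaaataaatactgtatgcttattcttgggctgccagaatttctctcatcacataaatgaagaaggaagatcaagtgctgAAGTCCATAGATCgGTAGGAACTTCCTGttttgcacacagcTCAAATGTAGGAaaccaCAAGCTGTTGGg

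Mpeg1, which encodes the pore-forming perforin-2 of macrophages, was at 3.09, 2.12 and 1.84 FPKM in the controls against 7.85, 4.71 and 5.72 in the mutants (1.08, SE 0.19). Unlike Lyz2 and Cd68, it was lowest in control 3 among the controls. Its upstream sequence is shown as a CpG-poor counterpart of Irf8, with its 2 CG pairs in capitals (RefSeq, GRCm38.p6, chr19:12460520-12460769, plus strand, 5′ to 3′).
Mpeg1: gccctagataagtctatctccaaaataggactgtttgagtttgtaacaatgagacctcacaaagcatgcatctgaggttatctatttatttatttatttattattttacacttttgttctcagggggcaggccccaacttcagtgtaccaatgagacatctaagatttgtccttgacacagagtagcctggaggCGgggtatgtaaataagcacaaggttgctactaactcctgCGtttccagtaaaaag

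Membrane proteins of macrophages all lay above 0, from 0.62 for Ms4a7 to 1.13 for Ms4a6c, both of a family of membrane-spanning proteins. Emr1, the gene of the F4/80 antigen now called Adgre1, was the most abundant of them, at 4.31, 2.12 and 4.52 FPKM in the controls against 10.4, 7.22 and 7.46 in the mutants (1.04, SE 0.23). Ms4a6c was at 2.29, 1.44 and 3 against 8.64, 5.21 and 4.58 FPKM (1.13, SE 0.23), while Ms4a7 was at 1.51, 0.919 and 2.03 against 4.08, 1.83 and 2.68 (0.62, SE 0.23), where mutant 2 fell between controls 1 and 3. Lilrb4, an inhibitory immunoglobulin-like receptor, was the 1 member whose highest control was control 2: 2.57, 3.38 and 2.93 FPKM against 6.74, 5.75 and 6.6 in the mutants (0.90, SE 0.13). Its value is uncertain, since 46.7% of its 50-base stretches occur in other genes. The same share was 12.3% for Csf2rb, 10.5% for Ms4a6c, 9.02% for Clec10a and at most 3.34% for the members not named here or above. Aif1, an actin-binding protein also known as Iba1, differed by 0.84 on 10 to 21 reads per control library.

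The secreted factors had differences above 1. F13a1, the coagulation factor XIII A subunit made by resident macrophages, was at 16.2, 12.5 and 24.4 FPKM in the controls against 52.9, 33.8 and 27.7 in the mutants (1.06, SE 0.28). Pf4, a chemokine of platelets that tissue macrophages also make, went from 6.09, 4.93 and 13.2 to 27, 17.5 and 15.6 FPKM (1.28, SE 0.31). Control 3 stood apart from the other controls, with the widest log2 gap to control 1 of all members. Platelet genes were measured beside it: 5 of 6 were under 1 FPKM in every library, and Itga2b, the sixth, was at 1.42, 0.825 and 1.01 against 1.41, 1.04 and 1.09 FPKM, with overlap. The sequence before Pf4 holds the same PU.1 letters on the other strand, ACTTCCTC, 10 bases before the start, in capitals (RefSeq, GRCm38.p6, chr5:90772185-90772434, plus strand, 5′ to 3′).
Pf4: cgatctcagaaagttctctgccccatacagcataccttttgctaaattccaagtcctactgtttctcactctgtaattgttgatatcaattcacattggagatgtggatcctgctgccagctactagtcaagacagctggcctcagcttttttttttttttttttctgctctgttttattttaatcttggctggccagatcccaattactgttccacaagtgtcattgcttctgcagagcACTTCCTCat

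The costimulatory genes Cd86 and Cd83, which help macrophages and dendritic cells to activate T cells, differed from each other. Cd86 was at 1.23, 0.795 and 1.13 FPKM in the controls against 2.96, 2.18 and 2.2 in the mutants (0.75, SE 0.14). Cd83 had the smallest difference of all tested members, 0.33 (SE 0.15), and its groups overlapped, with 2.44, 2.73 and 2.96 FPKM against 4.72, 2.95 and 3.48.

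**Figure D2:**
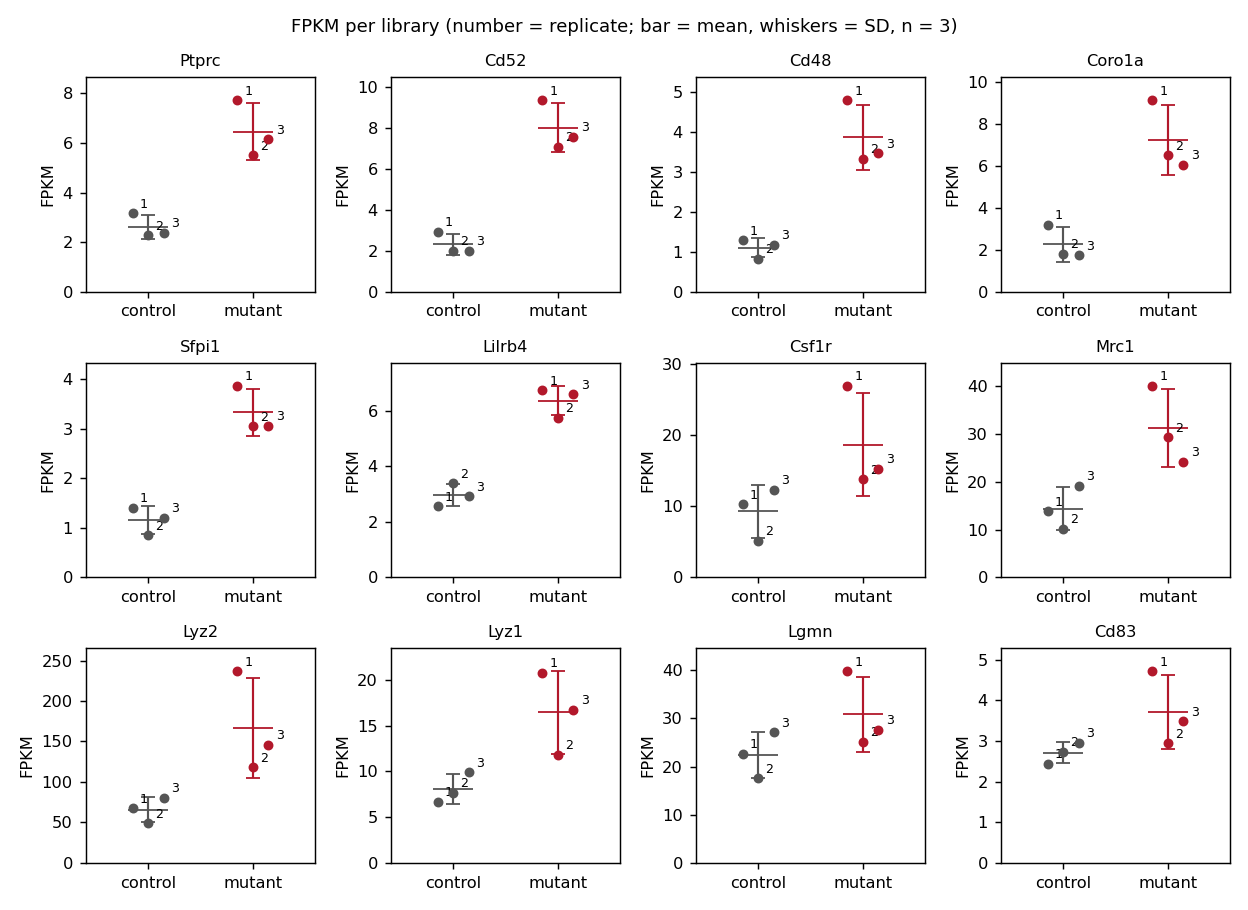
FPKM of 12 members, 1 panel each, with numbered points for the libraries, a bar for the mean of 3 libraries and whiskers for the SD. The groups are far apart for Cd52 and Ptprc, close for Csf1r and overlapping for Lgmn and Cd83, and mutant 1 is the highest point in every panel.

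The pan-leukocyte and macrophage classes differed from the controls by like amounts. The median difference was 0.90 (0.55 to 1.45) for 13 tested pan-leukocyte genes, 0.94 (0.33 to 1.30) for 26 tested macrophage and monocyte genes and 0.70 (0.57 to 1.15) for the 4 oxidase genes. The macrophage median exceeded the pan-leukocyte median by 0.04, less than the 0.16 by which this gap varied between libraries of a group (pooled SD). The order depended on the scale, since log2(FPKM + 1) understates changes of low genes. As ratios of mutant to control mean, the medians were 2.51-fold for all 14 pan-leukocyte genes, 2.23-fold for all 28 macrophage and monocyte genes and 2.22-fold for the 4 oxidase genes. Relative to the control mean, again on the log2 scale, the pan-leukocyte median was 0.17, -0.19 and 0.05 in the controls against 1.28, 0.78 and 0.68 in the mutants. The macrophage median was 0.06, -0.34 and 0.30 in the controls against 1.34, 0.78 and 0.74 in the mutants. Both classes thus separated the groups, with mutant 1 highest and mutants 2 and 3 close together. All tested genes had medians of 0.07, -0.11 and 0.04 in the controls against 0.25, -0.06 and 0.10 in the mutants. A list of 8 fibroblast genes moved alongside, at 0.15, -0.50 and 0.33 in the controls against 1.35, 0.87 and 0.91 in the mutants, and its part in the members' values was not tested.

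**Figure D3:**
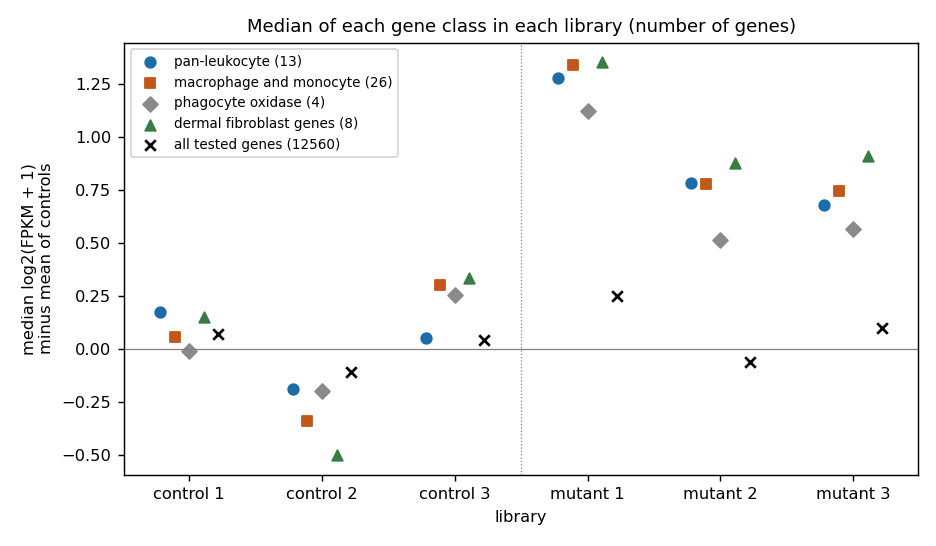
For each library the median of log2(FPKM + 1) minus the control mean is plotted for the pan-leukocyte, oxidase and macrophage classes, for 8 fibroblast genes and for all tested genes. The medians of the member classes lie between 0.51 and 1.34 in the mutants and between -0.34 and 0.30 in the controls, while all tested genes stay between -0.11 and 0.25.

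Library sex moved with genotype, since both Xist-high libraries (above 10 FPKM) were controls. With Xist-high as a covariate, which leaves control 3 alone to stand for the controls, the pan-leukocyte median was 0.75 and the macrophage median 0.58, so the gap between the classes turned from 0.04 to -0.17. With a pseudocount of 0.1 it was -0.16. The same medians came from the fit without controls 1 and 2. All 43 tested members stayed above 0 in both fits.

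Control 3 was set apart from control 1 in opposite ways by the classes. Control 1 was the highest control for 11 of 14 pan-leukocyte genes, and control 3 for 20 of 28 macrophage and monocyte genes and for all 4 oxidase genes. The median of control 3 minus control 1 was -0.13 for the pan-leukocyte genes, 0.24 for the macrophage genes and 0.20 for the oxidase genes. Over all tested genes 45.3% were higher in control 3 than in control 1. At the ends stood Coro1a at -0.61, Mpeg1 at -0.53, Ccr2 at -0.40 and Cd52 at -0.39, and on the other side Cd14 at 0.58, Cd68 at 0.61 and Pf4 at 1.0. The monocyte receptor Ccr2 thus went with the pan-leukocyte genes, as did Irf8 at -0.17 and Sfpi1 at -0.13, while Laptm5 at 0.56 went with the macrophage genes. These are single mice, so no test applies, and the pattern was found by looking. The mice also differed in library sex, with Xist at 55.5 FPKM in control 1 and 0.172 in control 3. Col1a1 was at 1646 FPKM in control 1 and 4494 in control 3. The part of these differences in the pattern was not tested.

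**Figure D4:**
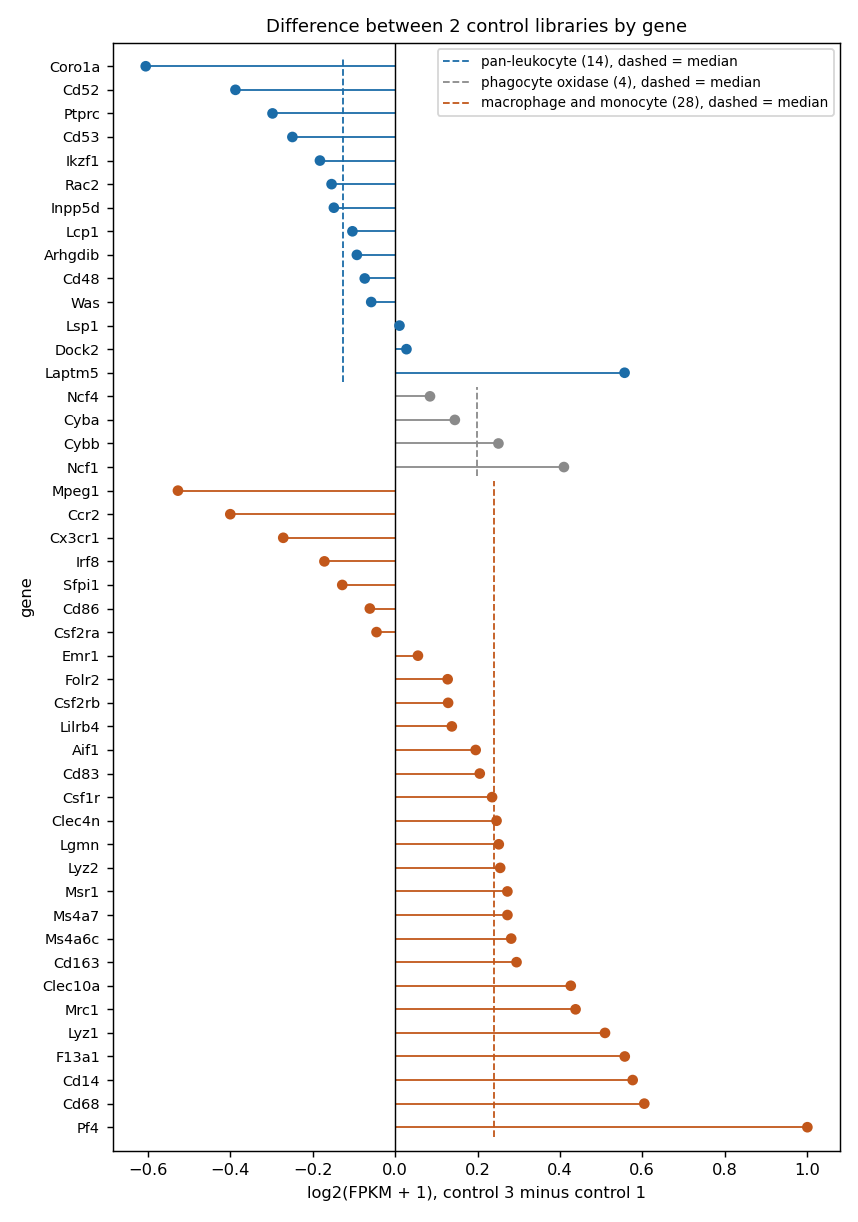
Each line is 1 of the 46 members, and its length is log2(FPKM + 1) in control 3 minus control 1, with dashed lines at the class medians. Pan-leukocyte genes (blue) lie mostly left of 0 and macrophage genes (orange) mostly right, with Mpeg1, Ccr2 and Laptm5 on the side of the other class.

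Markers of some other leukocytes were also lower in control 3 than in control 1. Of 12 dendritic and Langerhans cell genes 11 were lower, as were all 8 mast cell genes, 9 of 12 T cell genes and 6 of 8 B cell genes. Neutrophil genes were split, with 6 higher and 5 lower, as were natural killer cell genes, with 3 higher and 4 lower. Cd207, the langerin of Langerhans cells, was at 2.8, 1.32 and 0.481 FPKM in the controls against 3.61, 2.85 and 2.15 in the mutants. Cd3g, of the T cell receptor complex, was at 1.95, 0.74 and 0.458 against 2, 2.29 and 1.47 FPKM. Both were lowest in control 3 and overlapped between genotypes. They were chosen after their values were seen and do not stand for their lists: 4 of the 6 tested dendritic genes, Cd74 and H2-Aa among them, had separate groups, and those 2 were lowest in control 2. The part of these cell types in the values of the pan-leukocyte genes was not tested.

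Ratios within a library, which do not depend on its depth, mostly overlapped between the groups. Of 10 ratios looked at, 1 was separate: Cd52 to Ptprc, at 0.923, 0.875 and 0.836 in the controls against 1.21, 1.29 and 1.23 in the mutants. The control values carry the counting error of at most 25 Cd52 reads. Mrc1 to Ptprc was 4.38, 4.43 and 8.02 in the controls against 5.19, 5.34 and 3.93 in the mutants, with control 3 above and mutant 3 below all others. Cd163 to Ccr2, a resident against an entering cell's gene, was 3.42, 3.45 and 6.19 in the controls against 3.12, 3.8 and 2.22 in the mutants. The same outer libraries appeared, and in these ratios the controls differed from each other by more than the group means did.

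Genes that feed or direct macrophages but were no members had smaller list medians, and the difference between lists was not tested. Of 9 ligands and recruiting chemokines 7 passed the filter and 0 were called (limma, 3 at an unadjusted p under 0.05, all higher), with a median of 0.33. Csf1 was at 3.79, 3.04 and 6.04 FPKM in the controls against 7.51, 7.15 and 5.7 in the mutants (0.59, SE 0.20, limma adjusted p = 0.286), with control 3 above mutant 3. Without control 3 its difference was 0.82 and passed the threshold. Il34, the other ligand of Csf1r and the one made by keratinocytes, differed by 0.23 (limma adjusted p = 0.604). The chemokine genes Ccl12 and Ccl7, ligands of Ccr2, differed by 0.77 and 0.65 (limma adjusted p = 0.185 and 0.366), and only Ccl12 had separate groups. Of 9 other myeloid regulators 8 were tested, 0 were called (limma, 1 at an unadjusted p under 0.05) and the median was 0.23. Fli1, an ETS factor shared with endothelium, had 0.54 (limma adjusted p = 0.17), Cebpa 0.36 and Irf4 0.37, while Maf, a factor of mature macrophages that other skin cells also express, had -0.07.

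Further macrophage genes outside the list had a median of 0.77 over 20 tested of 26, with 18 above 0 and 1 called higher (limma adjusted p under the threshold, 0 lower). That gene was Fcer1g, the signalling chain of Fc receptors, which rose from 4.2, 3.26 and 3.66 FPKM to 11.4, 10.3 and 9.93 (1.3, SE 0.13, limma adjusted p = 0.0242). It lost the call without mutant 2 and with Xist-high as a covariate, at differences of 1.31 in both. Tyrobp, another signalling adaptor of myeloid receptors, had 1.46 (limma adjusted p = 0.0647), the integrin gene Itgam 0.82 (limma adjusted p = 0.0744) and C1qa, of complement C1q, 1.14 (limma adjusted p = 0.185). Without control 3, and again without mutant 3, Tyrobp (1.58 and 1.55) and Itgam (0.89 and 0.94) passed the threshold, and Tyrobp also after both scalings (1.35 each). Mertk, a receptor for apoptotic cells, was at 0.07, Gpnmb at -0.28 and Spp1, which many other cells make, at -0.45. Rac1, a GTPase that every cell uses and that can join the oxidase, had 0.22 (limma adjusted p = 0.781), and Nox4, an oxidase of other cells, 0.30 (limma adjusted p = 0.551). Of 15 further leukocyte cytoskeleton and integrin genes 12 were tested, 11 lay above 0 and 0 were called (limma, 10 at an unadjusted p under 0.05), with a median of 0.63. Itgb2, the common beta chain of leukocyte integrins, had 0.97 (limma adjusted p = 0.0647), and Myo1f and Nckap1l had 0.82 and 0.89.

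Which leukocytes carry the pan-leukocyte genes cannot be read from bulk RNA, and the levels of other types bear on it. T cell genes were low: 10 of 12 were under 1 FPKM in every library, Cd3g and Lck being the others. Their summed level was 2.04 to 4.90 FPKM in the controls and 5.77 to 6.68 in the mutants. B cell genes summed to 0.271 to 0.535 FPKM in the controls and 0.596 to 0.843 in the mutants, all 8 were under 1 FPKM and Pax5 was listed at 0 throughout. Natural killer cell genes, again 8 of 8 under 1 FPKM, summed to 0.527 to 0.944 and 1.18 to 2.0 FPKM. Neutrophil genes summed to 9.54 to 13.4 FPKM in the controls and 12.8 to 22.8 in the mutants, mostly from S100a8, a gene that keratinocytes also express. S100a9 stood apart in mutant 2, at 7.78 FPKM against 0.942 and 1.06 in the other mutants and 0.137 to 0.843 in the controls. Csf3r, Retnlg, Mmp8, Ltf and Ngp were also highest in mutant 2, on 51, 21, 15, 12 and 5 reads there. S100a8, Camp, Cxcr2, Mpo and Elane were highest in other libraries. Mast cell genes had a median difference of 1.06 over 6 tested of 8 and dendritic and Langerhans cell genes 1.18 over 6 of 12, with 0 called in either (limma, 5 at an unadjusted p under 0.05 in each). Dendritic genes summed to 51.6 to 121 FPKM in the controls and 141 to 258 in the mutants, mostly Cd74 and class II genes that macrophages share, and mast cell genes to 18.6 to 30.5 and 42.8 to 77.2. Of 7 red cell genes the 4 globin genes were listed at 0 in every library, and why was not tested. Red cell RNA was not absent, since Alas2 was at 3, 2.58 and 2.43 FPKM in the controls against 3.07, 2.53 and 4.11 in the mutants. Slc4a1 was at 1.36, 1.22 and 1.38 against 1.53, 0.834 and 1.64, and both genes overlapped between groups. The part of these cell types in the members' values was not tested.

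The promoters of the members had few CpG pairs. RefSeq start sites matched 31 of the 46 members, with 42 windows of 300 bases from 250 before to 50 after a start. Cd52, Lsp1, Rac2, Ncf4, Sfpi1, Csf1r, Csf2rb, Cd14, Msr1, Clec10a, Clec4n, Emr1, Lilrb4, Cd83 and Cd86 had no entry. The median window held 4 CpG pairs, 5 for pan-leukocyte and 3.5 for macrophage genes, where the 11647 windows of tested genes had a median of 20 and all 32851 windows a median of 7. Of member windows 16.7% had at least 10 CpG pairs, against 77.6% of those of tested genes and 43.5% of all. The exceptions, counting any window, were Coro1a, Csf2ra, Ikzf1, Irf8, Lcp1 and Lgmn, among which Ikzf1 reached 52 and Irf8 38. Irf8, Ikzf1, Lcp1 and Lgmn also had a second start with fewer than 10.

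**Figure D5:**
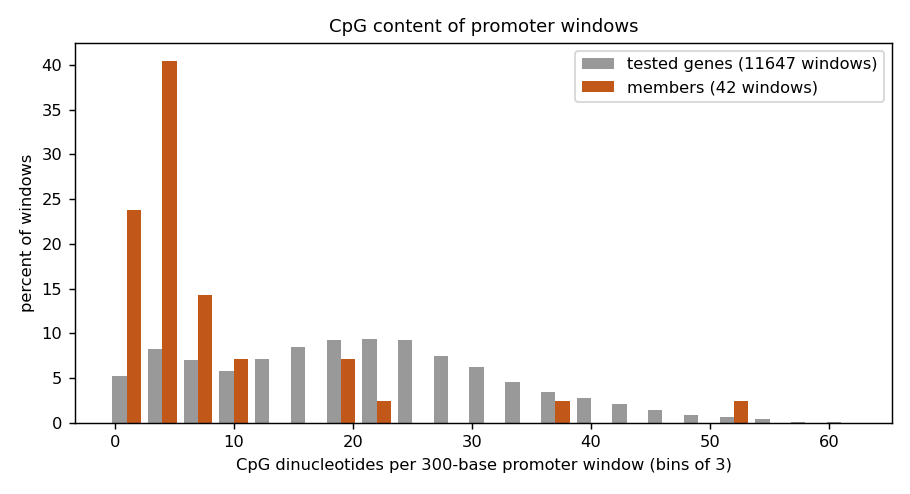
Percent of promoter windows against the number of CpG pairs in the window, in bins of 3, for 42 windows of members (orange) and 11647 windows of tested genes (grey). Member windows pile up at low counts, with a median of 4, and tested genes spread around 20.

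Letters of known factor sites were searched on both strands of the same windows. GAGGAAGT, the PU.1 preference shown above for Inpp5d and Pf4, was in 4 of 42 member windows (9.52%), those of Cd53, F13a1, Inpp5d and Pf4, and in 2.99% of windows of tested genes and 3.20% of all. TGTGGT, the RUNX core, was in 10 (23.8%) against 12.3% and 16.8%, and TATAAA in 5 (11.9%) against 7.98% and 13.6%. None of these letter strings contains another. A match is a string of letters in a reference promoter, and binding was not measured here.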

How the data were processed

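Total RNA of ventral dermis from 3 mutant and 3 control mice was made into TruSeq Stranded Total RNA libraries and sequenced from both ends, per the labels' protocols. The aligner GSNAP, the counter HTSeq and the mouse build mm10 come from the submitters' processing notes. Not given in the sources used here were versions, annotation and gene lengths. The authors deposited 1 table of FPKM (fragments assigned to a gene, scaled by its length and by sequencing depth), with 6 libraries as columns. A library's values are whole multiples of a step per gene, from which reads were recovered for all 23412 genes. For 1448 of these, seen in 1 library only, there was nothing to check. In a table simulated from the recovered reads, 98.1% of 2647 genes with 5 or more reads in every library came back exactly. Genes with fewer reads in any library, Cx3cr1 and Clec4n among them, lie outside that check. Precision follows the recovered reads.

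The members and all gene lists were chosen with earlier results of these data known. Values were compared as log2(FPKM + 1) over the 12560 genes whose mean reached 1 FPKM, in limma 3.58.1 (R 4.3.3) with an intensity trend, two-sided, Benjamini-Hochberg adjustment over all of them and a threshold of 0.05. The script was tested on simulated data. The labels name separate mice; p-values measure the spread between these libraries, and an exact permutation test of 3 against 3 could not reach the threshold.

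Per-library values are printed for called members, for the largest, smallest and most abundant of each role, and for Ptprc, Csf1r, Lyz1 and Lyz2. Of each other list up to 3 tested genes with the smallest p, and Csf1, Il34, Tyrobp, Fcer1g, Itgam and C1qa, were eligible. Any other gene named was chosen after its values were seen. Alternatives were another pseudocount (0.1), no filter or a mean of 5 FPKM, 2 scalings, each library left out, Xist-high libraries (above 10 FPKM) as a covariate or left out, a replicate block and limma-voom. Gene positions and shared 50-base stretches came from GENCODE M21 (GRCm38), promoters from RefSeq (GRCm38.p6).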

Additional observations from a re-analysis of the deposited data

How the results depend on the processing

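All 43 tested members kept a difference above 0 under each alternative fit in which they were tested. The count of 6 called members, and of 18 called genes in all, became 2 and 9 with a pseudocount of 0.1, 0 and 4 with no filter, 1 and 11 with Xist-high as a covariate, 12 and 266 without the Xist-high libraries, 1 and 10 without the libraries of lowest and highest scaling factor, and 23 and 185 with limma-voom. A mean of at least 5 FPKM left 7470 genes, 19 members among them. At that filter 1 member was called, where 19 genes were called in all. There 16 of the tested members had no overlap, and the same share over all genes was not computed. Quantile normalization called 32 genes. Leaving out single libraries gave 0 to 21 called members and 3 to 193 called genes.

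The pan-leukocyte median was 1.27 with the pseudocount of 0.1 and 0.58 without the libraries of extreme scaling factor. The macrophage median was 0.58 in both Xist fits and 0.60 without those libraries. The gap between them was -0.16 with the pseudocount of 0.1 and -0.17 in both Xist fits. The cause was not tested.

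With the replicate number as a block 9 members and 68 genes were called. Deviations of same-numbered libraries from their group means had correlations of 0.00, 0.04 and -0.08, and those of the other pairs ran from -0.27 to 0.28. Deviations from means of 3 libraries cannot decide whether the numbers pair the mice. In the controls, members with under 20 reads per library are limited by counting error.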
